A study of Mus musculus with 6 samples.

Results

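The genes that prepare replication origins for use were read across 6 RNA-Seq libraries of CD4+CD8+ double-positive (DP) thymocytes. They are the origin recognition complex subunits Orc1, Orc2, Orc3, Orc4, Orc5 and Orc6, the loading factors Cdc6 and Cdt1, the Cdt1 inhibitor Gmnn (geminin) and Dtl, which encodes the receptor through which Cdt1 is destroyed. Members were picked out by gene symbol, which found 10 of the 22322 genes in the deposited table. The list was made with earlier results of these data known. The control group was 3 libraries of DP thymocytes from untreated mice with the genotype Paxbp1fl/fl, called WT in the labels. The other group was 3 libraries from untreated mice labelled Paxbp1 cKO, with the genotype Paxbp1fl/fl Lckcre. All 6 libraries thus carry the floxed Paxbp1 alleles, and only the cKO group carries the Lck-cre transgene, whose Lck promoter drives Cre in cells of the T lineage from the DN stage on. The mice were 4 to 7 weeks old, of mixed sexes, and the controls were littermates on a C57BL/6 background. The cells were sorted by flow cytometry before RNA extraction.

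Origin licensing is the loading of the MCM helicase onto DNA before S phase. The origin recognition complex (ORC) marks the origin, Cdc6 joins it, and Cdt1 brings the helicase, which then waits on DNA in an inactive form. Once S phase starts, further loading is blocked so that no stretch of DNA is copied again. Geminin binds Cdt1 and holds it inactive, while the ubiquitin ligase CRL4 with its receptor Cdt2, the product of Dtl, marks Cdt1 for destruction when Cdt1 meets PCNA on replicating DNA. In the thymus, cells divide rapidly as they pass through the immature single-positive (ISP) stage and become DP blasts, and most DP cells are then small and rest outside the cycle.

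Between 18963775 and 26252248 counts were held by a library, and a single count came to 0.0381 to 0.0527 CPM (counts scaled to library size). Of the 15349 genes with a count, 11488 passed the filter on low counts and entered the quasi-likelihood test of edgeR, adjusted over all of them by the Benjamini-Hochberg method. Changes are given as log2FC, the log2 of the fold change from the control libraries to those labelled cKO. Its standard error (s.e.) was worked back from the test, as the size of log2FC over the square root of the F statistic. A gene was called at an adjusted p below 0.05, which took in 10.4% of the tested genes, 4.47% of them higher in the libraries labelled cKO and 5.89% lower. Paxbp1 itself, the targeted gene, had 40.1, 16.3 and 15.5 CPM in control libraries 1, 2 and 3 and 38.8, 47.1 and 49.6 CPM in the libraries labelled cKO (log2FC 0.92, s.e. 0.33, edgeR adjusted p = 0.0977). Without control library 1 its log2FC was 1.50 and it was called higher (edgeR adjusted p = 0.00170), as it was with all libraries by DESeq2 (0.92, adjusted p = 0.0213) and by limma-voom (1.08, adjusted p = 0.0390). Since only exon 8 is floxed and reads were counted over whole genes, this does not check the labels, and the libraries are called what their labels say. Nothing in the labels says that the libraries of a group came from separate mice, and the p-values measure only the spread between these libraries. Control library 1 stood apart from the other controls on the second principal component (36.64 beside -13.84 and -14.62). The libraries labelled cKO 1, 2 and 3 were spread along it too, at 21.23, -32.04 and 2.63. Calls over all genes were fewest without the library labelled cKO 3 (1.02% of the genes tested). Calls that were lost or gained without control library 1 or cKO 3 are given beside the gene or list.

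Of the 10 licensing genes, 6 were called and all 6 rose in the libraries labelled cKO. They were Orc1, Cdc6, Dtl, Cdt1, Gmnn and Orc6, with fold changes between 1.71 and 3.44. Orc2, Orc3, Orc4 and Orc5 were not called, with log2FC between -0.11 and 0.49. The median log2FC over the 10 genes was 0.85, beside -0.0017 over all tested genes. The count of 6 stands against the 4.47% of tested genes called higher. Since the list was made with earlier results of these data known, this is a description and not a test. With the fold threshold of the study's methods (log2FC beyond 1 in either direction besides the adjusted p), 4 genes passed, namely Orc1, Cdc6, Dtl and Cdt1, where 1.53% of tested genes did so as higher. By edgeR 0 of the 10 genes were called lower, 0 were lower at an unadjusted p below 0.05, and DESeq2 and limma-voom called 0 lower and 6 higher. Over all tested genes DESeq2 called 8.22% higher and 8.44% lower, and limma-voom 5.22% and 6.24%. These are levels in sorted populations, in which a larger share of cells that make a transcript and more of it per cell cannot be told apart.

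For 9 of the 10 genes the groups were fully apart, with the libraries labelled cKO above every control, and 15.7% of tested genes showed this pattern. Orc5 was the gene whose groups overlapped. All 10 genes were well covered, with 450 to 8236 counts in a library, and all 10 passed the filter on low counts.

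**Figure D1:**
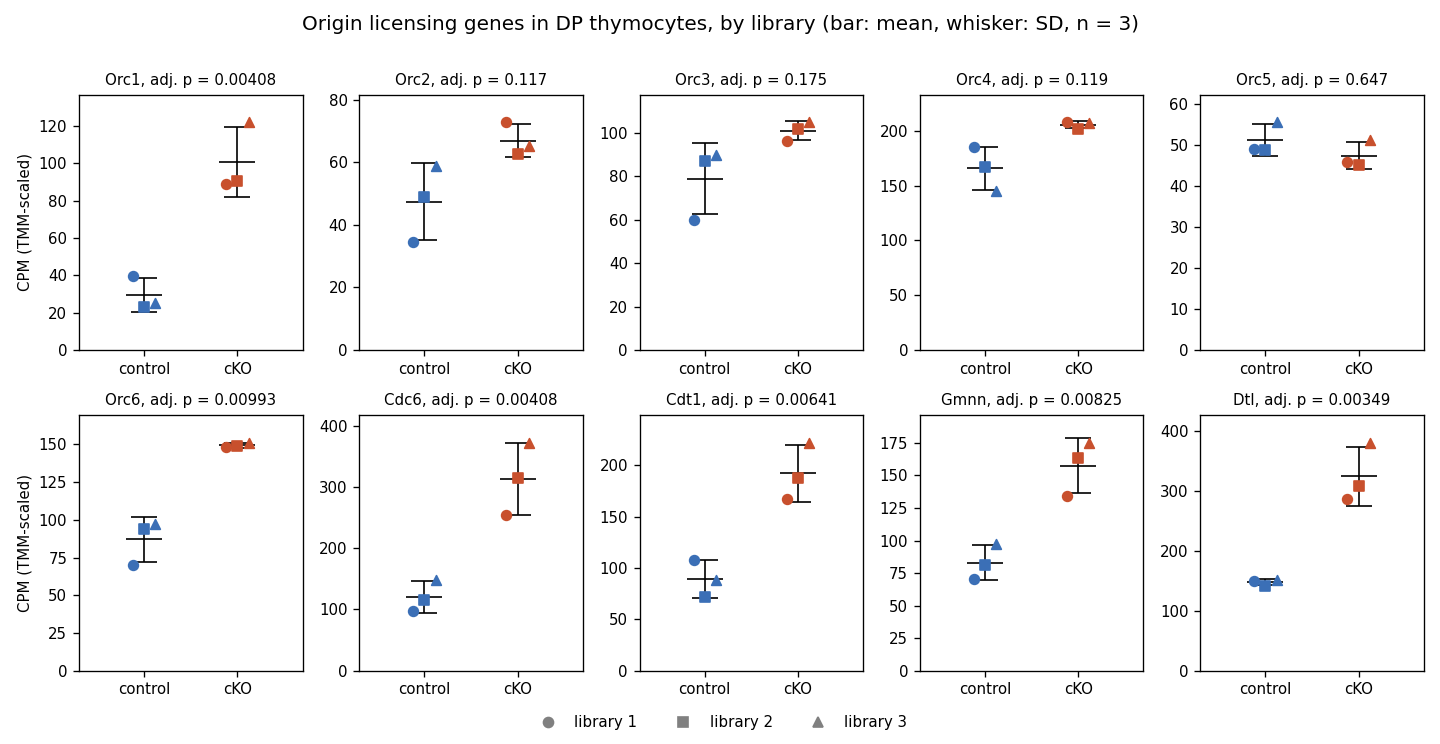
Each panel gives 1 licensing gene in TMM-scaled CPM on a linear axis from 0, with control libraries in blue and libraries labelled cKO in red, the symbol marking the library number, and the bar and whisker the mean and S.D. of 3 libraries. Orc1, Orc6, Cdc6, Cdt1, Gmnn and Dtl show the groups far apart, Orc2, Orc3 and Orc4 lie apart by a narrow gap, and the Orc5 values overlap.

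The members lie on chromosomes 1, 2, 4, 5, 8, 11 and 13 (GENCODE release M21 on GRCm38). Dtl lies at chr1:191537356-191575544 on the minus strand, Cdc6 at chr11:98907801-98923940 on the plus strand, Cdt1 at chr8:122568015-122573554 on the plus strand, Gmnn at chr13:24751845-24761923 on the minus strand and Orc1 at chr4:108579423-108614833 on the plus strand. Because several members moved together, their promoters were searched for E2F-type sites, the sequence bound by the E2F factors that turn on genes of S phase. The letters searched were TTTGGCGC, TTTCGCGC, TTTCCCGC and TTTGCCGC on both strands, and no run shown here holds more than 1 match. Windows ran from 250 bases before to 50 bases after each RefSeq start on GRCm38.p6. A window was found for 9 members (all but Gmnn), and 5 of the 9 held a match, while 2.26% of all 32851 windows and 4.95% of the tested genes with a window did. The 5 runs of 30 bases around the matches are shown 5′ to 3′ on the strand of the gene, with the match in capitals, because these are the windows that held any of the 4 searched motifs. Dtl and Cdt1 held TTTGGCGC, Cdc6 and Orc3 held TTTCCCGC and Orc1 held TTTCGCGC, so that no single one of these motifs was found in all 5.
Dtl, chr1:191575534-191575563, minus strand: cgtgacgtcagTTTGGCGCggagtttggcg
Orc1, chr4:108579416-108579445, plus strand: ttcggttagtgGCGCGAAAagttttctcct
Cdc6, chr11:98908002-98908031, plus strand: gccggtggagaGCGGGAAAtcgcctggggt
Cdt1, chr8:122568035-122568064, plus strand: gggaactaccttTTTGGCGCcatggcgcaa
Orc3, chr4:34614965-34614994, minus strand: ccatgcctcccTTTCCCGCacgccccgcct
The match begins 8 bases before the RefSeq start in Dtl, 27 in Orc1, 41 in Orc3 and 138 in Cdc6. In Cdt1 it begins 32 bases after that start. The RefSeq starts of Orc1 and Cdc6 lie inside the GENCODE spans given above, and so do their matches. In Orc1 and Cdc6 the searched letters stand on the strand opposite to the gene, so that the capitals read as their reverse complement. Of the 5 members with a match, Dtl, Orc1, Cdc6 and Cdt1 were called and Orc3 was not. Of the members with a window and no match, Orc6 was called, and Orc2, Orc4 and Orc5 were not. Among genes with a window, a match was held by 9.86% of those called higher and 3.18% of those called lower. A relation of matches to calls was not tested. A match is a description of letters, and no binding was measured.

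Within the ORC, 2 of 6 subunits were called. Orc1, an ATP-binding subunit that comes and goes with the cell cycle, had 39.7, 23.1 and 24.9 CPM in control libraries 1, 2 and 3 and 88.7, 90.5 and 122 CPM in the libraries labelled cKO 1, 2 and 3. Its lowest value in a library labelled cKO was 2.23 times its highest control value. Its mean ± S.D. was 29.3 ± 9.12 CPM in the controls and 100 ± 18.8 CPM in the libraries labelled cKO (n = 3 each), a log2FC of 1.78 (s.e. 0.22, edgeR adjusted p = 0.00408), the largest of the 10 genes. Control library 1 was the highest control, and without it the log2FC was 2.06. Antisense to Orc1 runs the gene Gm12743, which overlaps 10.8% of the exonic bases of Orc1 and was not analysed here, and the sources used here do not say if strand was used in counting.

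Orc6, the small subunit that is needed for helicase loading and also acts in cytokinesis, was the other subunit that rose. It had 69.8, 94.2 and 97.1 CPM in the controls and 148, 149 and 151 CPM in the libraries labelled cKO. The latter were nearly equal, while control library 1 lay below the other controls. The mean went from 87.0 ± 15.0 to 149 ± 1.60 CPM (n = 3 each), a log2FC of 0.78 (s.e. 0.14, edgeR adjusted p = 0.00993). Without the library labelled cKO 3 it was 0.77 and not called (edgeR adjusted p = 0.0639). The neighbouring gene Vps35 on the other strand shares 6.93% of the exonic bases of Orc6 and had a log2FC of 0.12 (edgeR adjusted p = 0.523).

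Orc2, Orc3, Orc4 and Orc5, which with Orc1 form the ring around DNA, were not called. Orc2 had 34.5, 48.9 and 58.8 CPM in the controls and 72.8, 62.6 and 65.2 CPM in the libraries labelled cKO, a log2FC of 0.49 (s.e. 0.19, edgeR adjusted p = 0.117). For Orc3 the control values were 60.1, 86.9 and 89.7 CPM and the others 96.3, 102 and 105 CPM, a log2FC of 0.36 (s.e. 0.16, edgeR adjusted p = 0.175). Orc4 had 185, 167 and 145 CPM against 208, 202 and 207 CPM, a log2FC of 0.31 (s.e. 0.12, edgeR adjusted p = 0.119). In each of these 3 genes the groups were apart, but the lowest value labelled cKO was only 1.06, 1.07 and 1.09 times the highest control. Control library 1 was the lowest control for Orc2 and Orc3 and the highest for Orc4. Without it Orc4 was called (log2FC 0.40, edgeR adjusted p = 0.0260). Exons of Nif3l1 on the other strand cover 29.8% of the exonic bases of Orc2, and Nif3l1 had a log2FC of 0.19 (edgeR adjusted p = 0.577). Orc5 had 49.2, 48.9 and 55.7 CPM in the controls and 46.0, 45.1 and 51.3 CPM in the libraries labelled cKO, a log2FC of -0.11 (s.e. 0.14, edgeR adjusted p = 0.647). It was the member with the smallest change and the one below 0.

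The ratio of Orc1 to the other ORC subunits was therefore different between the groups. The log2 ratio of Orc1 to the mean of Orc2 to Orc6, in CPM, was -1.01, -1.95 and -1.84 in control libraries 1, 2 and 3 and -0.36, -0.31 and 0.07 in the libraries labelled cKO. The groups did not overlap, and their means were -1.60 ± 0.52 and -0.20 ± 0.24 (mean ± S.D., n = 3 each).

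Both loading factors rose. Cdc6, an ATPase that binds ORC and completes the ring that receives the helicase, had 96.8, 115 and 148 CPM in the controls and 254, 314 and 372 CPM in the libraries labelled cKO. Its highest control lay well below its lowest value labelled cKO, which was 1.71 times as high. The mean rose from 120 ± 25.9 to 313 ± 59.4 CPM (n = 3 each), a log2FC of 1.38 (s.e. 0.18, edgeR adjusted p = 0.00408). Cdt1, which carries the MCM helicase to the origin, had 108, 71.6 and 88.8 CPM in the controls and 167, 188 and 222 CPM in the libraries labelled cKO. Here control library 1 was the highest control, whereas for Cdc6 it was the lowest. The mean of Cdt1 rose from 89.5 ± 18.4 to 192 ± 27.6 CPM (n = 3 each), a log2FC of 1.10 (s.e. 0.17, edgeR adjusted p = 0.00641). Each time 1 library was left out, Cdc6 and Cdt1 were still called, with log2FC of 1.24 to 1.56 and 0.96 to 1.26. Cdt1 lies within the span of Gm20388 on the same strand but shares no exonic base with it.

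The genes that restrain Cdt1 rose with it. Dtl had 149, 142 and 152 CPM in the controls and 286, 308 and 380 CPM in the libraries labelled cKO. The control values of Dtl were the tightest of the members, with the highest 1.07 times the lowest. Its mean rose from 147 ± 5.19 to 325 ± 49.1 CPM (n = 3 each), a log2FC of 1.14 (s.e. 0.13, edgeR adjusted p = 0.00349). By unadjusted p it ranked 11 among the 11488 tested genes, the highest place of the 10 members. Gmnn had 70.5, 81.2 and 97.5 CPM in the controls and 134, 163 and 175 CPM in the libraries labelled cKO. Geminin protein is present from S phase until mitosis, when it is destroyed. The mean of Gmnn rose from 83.1 ± 13.6 to 157 ± 20.9 CPM (n = 3 each), a log2FC of 0.92 (s.e. 0.15, edgeR adjusted p = 0.00825). Without the library labelled cKO 3 it was 0.84 and not called (edgeR adjusted p = 0.0554), while Dtl kept its call with each library left out (log2FC 1.01 to 1.22).

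Among the 10 genes, 4 were still called without the library labelled cKO 3 (Orc1, Cdc6, Dtl and Cdt1), where 0.359% of the genes tested were called higher. Without control library 1 the number was 7, beside 8.42% of the genes tested. The library labelled cKO 3 held the highest value of Orc1, Cdc6, Cdt1, Gmnn, Dtl, Orc3 and Orc6.

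The transcripts of Cdt1 and of the genes that restrain it were compared by ratios within each library. Protein levels were not measured in these libraries, so the balance of the proteins is not known from these ratios. The log2 ratio of Dtl to Cdt1 in CPM was 0.46, 0.99 and 0.77 in control libraries 1, 2 and 3 and 0.78, 0.72 and 0.78 in the libraries labelled cKO. These groups overlapped, with means of 0.74 ± 0.27 and 0.76 ± 0.04 (n = 3 each). For Gmnn to Cdt1 the values were -0.62, 0.18 and 0.13 in the controls and -0.32, -0.20 and -0.34 in the libraries labelled cKO, with means of -0.10 ± 0.45 and -0.29 ± 0.07. Cdc6 to Cdt1 gave -0.16, 0.69 and 0.74 against 0.60, 0.74 and 0.75. In all of these ratios the groups overlapped, and control library 1 had the lowest value of the 6 libraries. The libraries labelled cKO lay within a narrow range of one another in each ratio.

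The same genes were then set against the summed CPM of Mcm2 to Mcm7, the subunits of the helicase that licensing loads. That sum was 2165, 2649 and 3167 CPM in the controls and 4211, 4680 and 5667 CPM in the libraries labelled cKO. Relative to it, Cdc6 still stood higher, with log2 ratios of -4.48, -4.52 and -4.42 in the controls and -4.05, -3.90 and -3.93 in the libraries labelled cKO. Orc1 did so too, with means of -6.53 ± 0.67 and -5.60 ± 0.08, although control library 1 (-5.77) came close to the other group. Gmnn kept nearly the same ratio to the helicase genes, at -5.00 ± 0.05 and -4.94 ± 0.09, with overlapping groups. The ratios of Cdt1, Dtl, Orc2, Orc4 and Orc6 overlapped between the groups as well. Orc3 and Orc5 stood lower relative to the helicase genes, with means of -5.08 ± 0.13 and -5.58 ± 0.16 for Orc3 and -5.68 ± 0.20 and -6.67 ± 0.14 for Orc5, and no overlap in either.

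**Figure D2:**
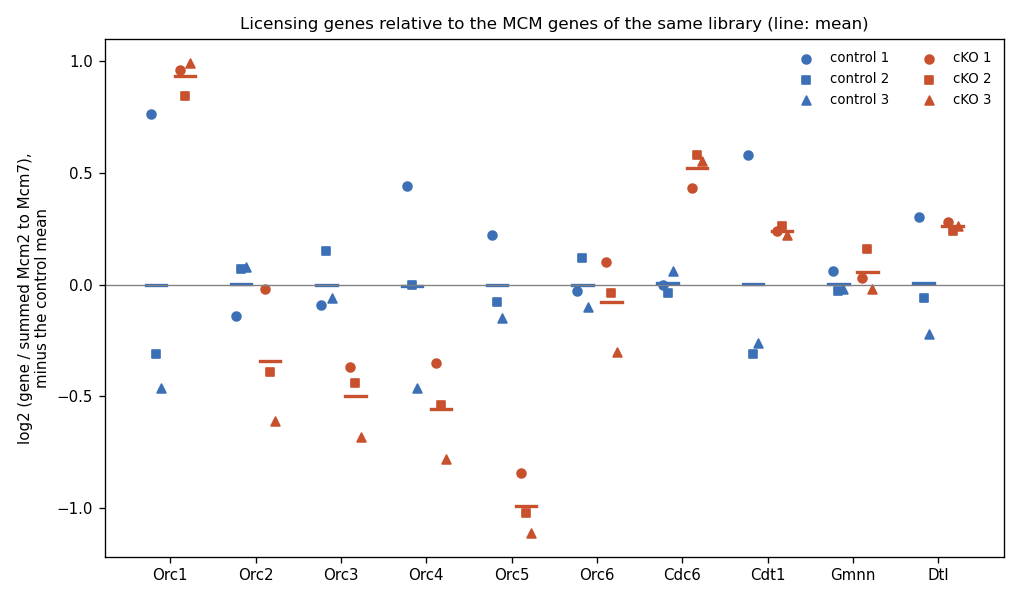
For each licensing gene, the log2 ratio to the summed CPM of Mcm2 to Mcm7 in the same library is plotted after subtracting the control mean, with control libraries in blue, libraries labelled cKO in red and a line at each group's mean. Cdc6 and Orc1 lie above all controls, Orc3 and Orc5 below them, and Gmnn stays near 0 in both groups.

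The ratios above were in CPM, which are not scaled to length, so they compare libraries and do not give the share of a transcript. To rank the genes by level, values per length were used, in the FPKM (fragments scaled to gene length and library size) that the authors deposited. Gmnn was the highest member in both groups, at 85.6 ± 12.8 FPKM in the controls and 165 ± 21.0 FPKM in the libraries labelled cKO (mean ± S.D., n = 3 each). In the controls it was followed by Orc4 at 78.2 ± 10.6 and Orc6 at 68.3 ± 11.0 FPKM, and neighbours in this order overlapped. A gap separated Orc6 from Cdc6 (42.5 ± 8.86), Cdt1 (40.7 ± 8.86), Dtl (34.7 ± 1.33) and Orc3 (34.3 ± 6.71 FPKM), which overlapped each with the next. Orc5 (24.3 ± 1.52), Orc2 (17.5 ± 3.93) and Orc1 (9.67 ± 3.17 FPKM) came last, and Orc2 and Orc1 overlapped in the controls. Orc1 was thus the least abundant member there.

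In the libraries labelled cKO Gmnn again came first, and the order of these levels was different at the low end. Orc6 at 120 ± 0.750, Cdc6 at 112 ± 22.1 and Orc4 at 108 ± 6.18 FPKM stood below Gmnn, each overlapping with the next of these 3. The places of Cdc6 and Orc4 depended on the length used. In CPM per kb of the longest coding transcript, the means in the libraries labelled cKO were 67.9 for Cdc6 and 50.6 for Orc4, below Cdt1 at 87.8 and Dtl at 77.1, and in the controls Cdc6 (26.0) stood below Dtl (35.0) and Orc3 (34.3), and Orc4 (40.8) below Orc6 (59.4). Cdt1 at 88.3 ± 12.2 and Dtl at 77.5 ± 11.2 FPKM overlapped with each other and lay above Orc3 at 45.2 ± 1.89 FPKM. Orc1, at 33.5 ± 6.01 FPKM, stood above Orc2 at 24.7 ± 3.63 and Orc5 at 22.7 ± 1.42 FPKM without overlap with Orc2.

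**Figure D3:**
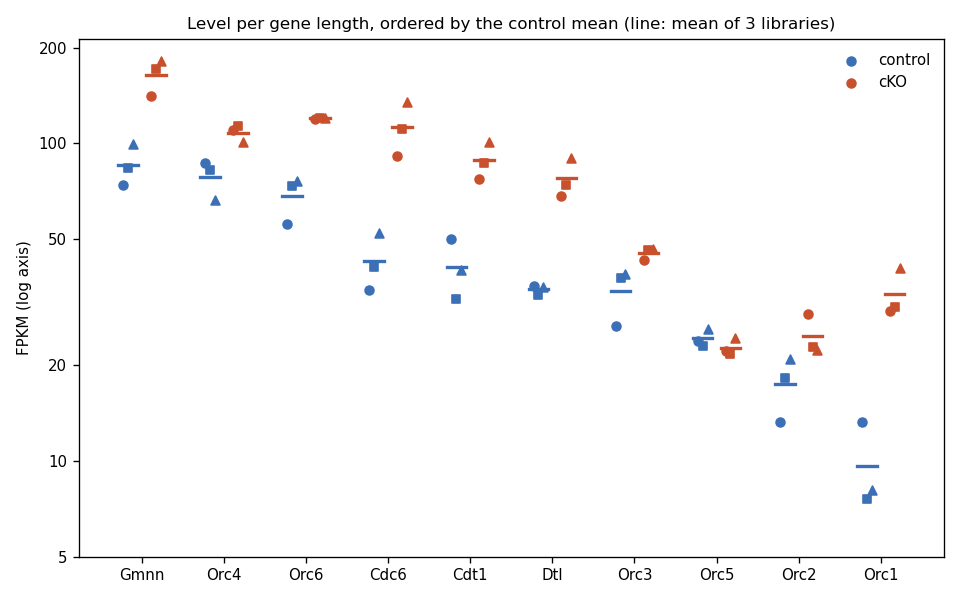
The deposited FPKM of the 10 licensing genes are shown on a log axis, ordered by the control mean, with control libraries in blue, libraries labelled cKO in red, the symbol for the library number (circle 1, square 2, triangle 3) and a line at the mean of 3 libraries. Gmnn leads in both groups, and Orc1 moves from the lowest control mean, 9.67 FPKM, to 33.5 FPKM, above Orc2 and Orc5.

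The length by which the authors divided can be read back from the counts and the FPKM. It was 4.21 to 4.22 kb for Dtl and 3.01 kb for Orc1 in every library, close to their longest coding transcripts of 4212 and 3014 nt. For Orc4 it varied, from 1.80 kb in the library labelled cKO 2 to 2.17 kb in control library 1 with overlapping groups, and the highest was 1.20 times the lowest, where the median over 7167 genes was 1.04. Orc2 was the other member with a varying length, with a highest value 1.15 times the lowest. The log2 ratio of the group means of Orc4 was accordingly 0.47 in FPKM and 0.31 in CPM, while for Dtl it was 1.16 and 1.14.

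Around the members, the helicase genes rose most widely. Of the 7 genes on that list, 6 were called higher and 0 lower, and the list's median log2FC was 0.94. Mcm4, Mcm3, Mcm5 and Mcm6 had log2FC of 1.10, 1.05, 1.03 and 0.94 (edgeR adjusted p = 0.00408, 0.00825, 0.00825 and 0.0146). Mcmbp, which binds MCM subunits off the DNA, had 0.14 and was not called (edgeR adjusted p = 0.461). Without the library labelled cKO 3 the list had 1 called gene, Mcm4, and without control library 2 it had 3, where 1.50% of all genes were called higher.

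The partners of Dtl in the ligase did not move as a group. On the list of CRL4 parts, PCNA and other substrates, 3 of 8 genes rose and 1 fell, with a median log2FC of 0.21. Over all tested genes 4.47% rose and 5.89% fell. Of the ligase parts, Cul4b rose, Cul4a fell, and Ddb1 and Rbx1 were not called. Rbx1 had a log2FC of -0.01 (edgeR adjusted p = 0.956). Pcna, the sliding clamp that must sit on DNA for Cdt2 to act, had 431, 508 and 617 CPM in the controls and 880, 878 and 1020 CPM in the libraries labelled cKO (log2FC 0.84, s.e. 0.14, edgeR adjusted p = 0.00869). Without the library labelled cKO 3 Pcna was not called (log2FC 0.76, edgeR adjusted p = 0.0577). Cul4a, a cullin scaffold of the ligase, fell from 91.3 ± 12.8 to 58.7 ± 4.28 CPM (n = 3 each), a log2FC of -0.64 (edgeR adjusted p = 0.0205). Its paralogue Cul4b had 31.1, 37.3 and 35.0 CPM in the controls and 48.3, 54.4 and 47.4 CPM in the libraries labelled cKO, a log2FC of 0.54 (edgeR adjusted p = 0.0426). The 2 cullin genes of the same ligase thus moved in opposite directions, and their groups did not overlap. The call of Cul4a was lost without control library 2, cKO 1 or cKO 3 (edgeR adjusted p up to 0.103), that of Cul4b was lost without each library but control library 1 (up to 0.122), and Cul4b was not called without the filter on low counts (adjusted p = 0.0507). The substrate Tdg, a DNA glycosylase, had a log2FC of 0.43 (edgeR adjusted p = 0.0389) and was not called without each library but control library 1 (up to 0.154). Chosen after their values were seen, the adaptor Ddb1 had -0.27 and the substrate Cdkn1a, the CDK inhibitor p21, had 1.31. Neither was called in the main test (edgeR adjusted p = 0.139 and 0.0569). By DESeq2, and by edgeR under the 5 CPM filter on the mean, 4 genes of this list were called higher, beside 8.22% and 6.79% of all genes. Besides Pcna, Cul4b and Tdg, Cdkn1a was the only gene of the list with a positive log2FC. Without control library 1, 2 genes of this list were called lower, and without cKO 3 the list had 0 calls in either direction.

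Other routes by which licensing proteins are marked for destruction showed 1 of 11 genes higher and 0 lower, with a median log2FC of 0.20. The gene was Skp2, the receptor of the SCF ligase that marks Cdt1 after its phosphorylation (log2FC 0.70, s.e. 0.18, edgeR adjusted p = 0.0354). It was not called without control library 2, control library 3, cKO 2 or cKO 3 (edgeR adjusted p up to 0.157), and 3 genes of the list were called without control library 1. Of the genes that turn licensed origins into forks, 5 of 14 rose and 0 fell, with a median log2FC of 0.56. Gins3, Wdhd1, Mcm10 and Topbp1 had log2FC of 0.84, 0.78, 0.95 and 0.72 (edgeR adjusted p = 0.0124, 0.0299, 0.0307 and 0.0397). Fewer firing genes were called with a library left out, namely 2 without control library 2 (1.50% of all genes), 3 without control library 3 (2.42%), 2 without cKO 1 (1.53%), 1 without cKO 2 (2.81%) and 0 without cKO 3 (0.359%). Among S phase cyclins and kinases, 1 of 5 rose. It was Ccne2, a cyclin that activates CDK2 at the start of S phase (log2FC 1.24, s.e. 0.15, edgeR adjusted p = 0.00349), which was called with each library left out.

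Of the ORC chromatin partners and geminin relatives, 1 of 5 tested genes rose. This was Rif1, which limits origin firing through a phosphatase (log2FC 0.83, s.e. 0.13, edgeR adjusted p = 0.00685, and 0.0509 without the library labelled cKO 3). Gmnc, a geminin relative, had 0 counts in all 6 libraries. Among the E2F factors 1 of 8 rose, E2f1 (log2FC 0.79, s.e. 0.16, edgeR adjusted p = 0.0167). It was not called without control library 2, cKO 2 or cKO 3 (edgeR adjusted p = 0.0705, 0.0516 and 0.0944).

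Genes of the later part of the cycle gave another picture. Of 18 G2/M genes, 0 were called higher or lower by edgeR, 7 had a positive log2FC, and the median was -0.02, with a range from -0.57 to 0.25. At an unadjusted p below 0.05, 0 were higher and 1 lower, DESeq2 called 0 higher and 1 lower, and limma-voom called 0 in either direction. Their summed CPM was 3680, 5821 and 6181 in control libraries 1, 2 and 3 and 4334, 5364 and 5585 in the libraries labelled cKO, so that the groups overlapped. Control library 1 was the lowest of the 6, and without it 3 of the 18 genes were called lower, beside 8.68% of all genes. The difference between the licensing genes and the G2/M genes was not tested.

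**Figure D4:**
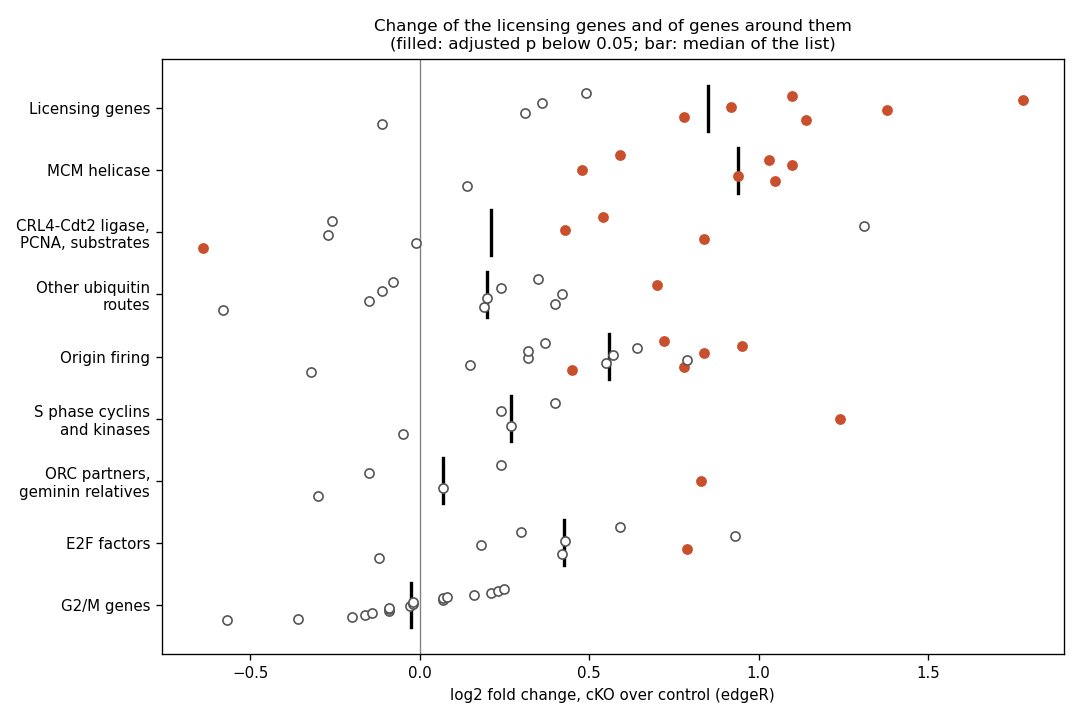
Each point is 1 tested gene, placed by its log2FC (libraries labelled cKO over control) and by list, filled where the edgeR adjusted p was below 0.05, with a black bar at the median of the list and the height within a row carrying no value. The medians of the licensing genes (0.85) and the helicase genes (0.94) lie to the right of 0, and the 18 G2/M genes gather around 0 with none filled.

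Among 9195 genes with a mean of at least 5 CPM outside the members, those whose profile over the 6 libraries was most like that of Dtl were Mcm4, Atad5, Ccne2, Wee1 and Stil. Likeness was the root mean square difference of log2 CPM after centring each gene on its mean, and it ran from 0.075 for Mcm4 to 0.133 for Stil. Atad5 takes PCNA off DNA, and Wee1 is a kinase that holds back CDK1. The log2FC of the genes nearest to Dtl lay between 1.02 and 1.24, a closeness to its own 1.14 that the choice by likeness largely fixes. Within the members, Cdt1 was nearest to Dtl (0.155), followed by Gmnn (0.175) and Cdc6 (0.221), and Orc5 was farthest (0.626). For Cdt1 the nearest genes were Riok2, Rev1, Fastkd3, Pnn and Ikzf2, at 0.118 to 0.156. Each of these was called with all libraries, but none without the library labelled cKO 3 (edgeR adjusted p from 0.0543 to 0.109). Dtl was as near to Cdt1 as Ikzf2, at 0.155 and 0.156.

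Markers of the sorted population moved as well. Of 10 DP markers, 3 fell in the libraries labelled cKO and 0 rose, and all 10 had a negative log2FC (median -0.39). They were Rag1, a recombinase subunit, and the receptor parts Cd3e and Cd8b1, with log2FC of -0.85, -0.61 and -0.58 (edgeR adjusted p = 0.00923, 0.0104 and 0.0383). The number of DP markers called lower was 0 without the library labelled cKO 3 (0.666% of all genes lower), 1 without control library 2 (1.98%), 6 without control library 1 (8.68%) and 5 with DESeq2 (8.44%). The list's summed CPM ran from 11272 to 13289 in the controls and from 8288 to 9807 in the libraries labelled cKO. Chosen after their values were seen, Cd4 and Cd8a had 266 and 1821 CPM in the controls and 190 and 1479 CPM in the libraries labelled cKO, so the defining markers were present in both groups. Of 7 tested DN and ISP markers, 3 rose and 0 fell (median 0.25), namely Hes1, Il2ra and Dtx1. Of these only Hes1 was called without control library 3, without cKO 1 or without cKO 3. Of the 7, 4 had a positive log2FC, while Kit, Ptcra and Cd44 had -0.93, -0.31 and -0.01, none of them called. Without control library 1, Ptcra of this list was called lower. The list's summed CPM went from between 208 and 273 to between 306 and 326. Within that sum the mean of Hes1 went from 7.83 to 54.1 CPM, that of Notch1 (not called) from 136 to 162 and that of Ptcra from 76.8 to 61.9. Of 7 mature SP markers, 1 rose, the activation marker Cd69, and 0 fell, with overlapping sums of 1687 to 2118 and 1750 to 1969 CPM. Cd69 had 201, 159 and 119 CPM in the controls and 681, 187 and 460 CPM in the libraries labelled cKO, so that the groups overlapped. There were 0 SP markers called higher without control library 2, control library 3, cKO 1 or cKO 3, and 1 was called lower without control library 1. Of 12 macrophage markers, 8 were tested and 4 rose (Adgre1, C1qb, C1qc and Cd68), with sums of 9.94 to 28.9 and 50.6 to 70.1 CPM, while Mertk and Marco were at 0 in all libraries. The number called higher was 1 without cKO 3, 5 without control library 1, 1 under a filter at a mean of 5 CPM (6.79% of all genes higher) and 6 with DESeq2 or limma-voom. Erythroid markers summed to 27.5 to 141 and 1.92 to 48.8 CPM, B cell markers to 40.9 to 45.9 and 25.8 to 28.9 CPM, and NK and innate T cell markers to 76.4 to 141 and 139 to 167 CPM. Markers of dendritic cells summed to 1.54 to 3.96 and 4.06 to 6.25 CPM, and those of thymic epithelial cells to 11.3 to 14.0 and 9.91 to 14.1 CPM. Of these last lists Cd79b, the 1 B cell marker tested, fell but was not called without control library 2, cKO 1 or cKO 3, and of the 5 erythroid, 3 NK and innate, 2 dendritic and 2 epithelial markers tested 0 were called by edgeR, at an unadjusted p below 0.05, by DESeq2 or by limma-voom. Clec9a of dendritic, Klrb1c of NK and Krt5 of epithelial cells were at 0 in all libraries. The part of these shifts in the levels of the licensing genes was not tested.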

How the data were processed

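The authors deposited 1 table of 22322 genes with raw read counts per gene and library, and FPKM values scaled by the authors to gene length and library size. The submitters' processing notes list fastp 0.18.0, Bowtie2 2.2.8, HISAT2, StringTie 1.3.1 and RSEM. The genome build, the annotation and any rounding of estimated counts by the authors were not given in the sources used here. Also in the deposited table are the authors' mean FPKM per group and their own log2 fold changes and p-values, which were not used.

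The counts were fitted with edgeR 4.0.16 under R 4.3.3. Genes were kept by filterByExpr (minimum count 10, minimum total 15), libraries were scaled by TMM, and genotype was the only term. CPM were computed from the TMM-scaled counts of the tested genes, and log2 CPM used a prior count of 2. The paper's methods name DESeq2, and DESeq2 1.42.0 was an alternative, with limma-voom (limma 3.58.1), RLE factors, total counts, other filters, the replicate number as a term, and each library left out in turn. No duplicates were found among libraries of a group, which differed by a chi-square of 19.1 to 64.9 per degree of freedom. The scripts were tested on simulated counts.

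The members and all lists were chosen with earlier results of these data known. Named genes were the members, up to 4 called genes with the smallest p of each list, the 5 genes most like Dtl and Cdt1, and Paxbp1. On the list, Skp1a was read as Skp1, the symbol in the table. Promoters were matched by Ensembl identifier, symbol or synonym, for 80.1% of the tested genes. Where a gene had several windows, a match in any of them counted. Protein sequences were not used here.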

Additional observations from a re-analysis of the deposited data

How the results depend on the processing

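Of the 70 values of the 10 licensing genes under 7 alternatives that kept all libraries, all 70 kept their direction and their side of the threshold, and of 60 values with 1 library left out 57 did. Gmnn (log2 fold change 0.84, adjusted p = 0.0554) and Orc6 (0.77, adjusted p = 0.0639) lost the call without the library labelled cKO 3, and Orc4 gained it without control library 1 (0.40, adjusted p = 0.0260). Over the libraries left out, the log2 fold changes ran from 0.81 to 1.05 for Gmnn, 0.64 to 0.86 for Orc6 and 0.22 to 0.40 for Orc4. The number of members called higher ran from 4 to 7.

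Calls over all genes, 514 higher and 677 lower, ran from 42 to 1000 and from 78 to 1030 with 1 library left out, and DESeq2 called 943 higher. With 1 library left out, the number called higher ran from 1 to 6 for the helicase genes, 0 to 3 for the CRL4 list (0 to 2 lower), 0 to 3 for the other ubiquitin routes, 0 to 5 for the firing genes, 0 to 1 for the ORC partners and 0 to 1 for the E2F factors, and 0 to 3 G2/M genes were called lower. Marker calls ran from 0 to 6 for DP (lower) and from 1 to 3 for DN and ISP, 1 to 5 for macrophage and 0 to 1 for SP markers (higher). Of the other ubiquitin routes 3 were called with DESeq2, 2 with total counts alone and 3 under the 5 CPM filter on the mean, and of the E2F factors 2 with DESeq2. DESeq2 called 1 G2/M gene lower. For 25 named genes outside the members, 171 of 175 values under alternatives with all libraries and 101 of 150 with 1 library left out stayed on their side of the threshold, and 0 were reversed.

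Labels number the libraries 1 to 3 in both groups, but same-numbered libraries did not deviate together (correlations of 0.0451, 0.0377 and -0.03 over genes). With the replicate block, 2 genes of the other ubiquitin routes and 3 E2F factors were called higher and 1 G2/M gene and 5 DP markers lower, Cul4b had an adjusted p of 0.0520, and no call among the members changed.

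Levels per kb of the longest coding transcript, in place of FPKM, were 26.0 and 67.9 for Cdc6 (control and labelled cKO), 13.3 and 18.8 for Orc2 and 40.8 and 50.6 for Orc4, and 140 for Gmnn and 102 for Orc6 in the libraries labelled cKO. The place of these genes in the order of levels thus depends on the length used. With 3 libraries a group, small differences such as those of Orc2, Orc3 and Orc4 could not be settled. The cause of these shifts was not tested.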
